A study of Mus musculus with 15 samples.

Results

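The 10 integrin subunit genes Itga1, Itga2, Itga3, Itga5, Itga6, Itgav, Itgb1, Itgb4, Itgb6 and Itgb8 were followed across lung metastasis and its surroundings in the mouse. They were taken as a list of named genes, 6 alpha and 4 beta subunits among 54838 annotated genes, and all 10 were found. RNA was sequenced from 15 libraries in 5 groups of 3. 4T1, a mammary carcinoma line of the BALB/c mouse, was grown in culture in medium with serum (4T1 in vitro) or was isolated from BALB/c lungs 7 days after injection into the tail vein (4T1 in vivo). The other 9 libraries were lung epithelial cells, titled EpCAM after the surface protein, that were FACS sorted 7 days after injection of 800000 labelling 4T1 cells, each library from a pool of 5 lungs: distal epithelium, niche epithelium, and niche epithelium labelled shSox9. All 3 epithelial groups thus came from lungs that carried injected 4T1 cells, and none came from a lung without tumour cells. The sources used here give neither the age or strain of the epithelial hosts, nor which cells carried the Sox9 hairpin, nor whether the 3 libraries of a 4T1 group came from separate cultures or animals. The p-values for the 4T1 cells therefore measure the spread between libraries, which may be technical.

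Integrins are receptors for the extracellular matrix, each made of 1 alpha and 1 beta chain that span the membrane and link matrix outside the cell to actin or keratin inside it. The beta chain Itgb1 pairs with the collagen-binding chains Itga1 and Itga2, with the laminin-binding chains Itga3 and Itga6, and with the fibronectin receptor chain Itga5. Itgb4 pairs only with Itga6 and anchors keratin filaments in hemidesmosomes. Itgav pairs with Itgb1, Itgb6 or Itgb8, among others, and its dimers with Itgb6 and Itgb8 activate latent TGF-beta. In lung, Itgb6 is known as an epithelial subunit that rises in injured alveolar epithelium.

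Total counts per library ran from 15907316 to 30421705. Sox9 was at 1.31 to 1.68 TPM (a transcript level corrected for transcript length and library size) in distal libraries. It was at 12.36 to 24.19 TPM in niche and 13.31 to 33.81 TPM in niche labelled shSox9 libraries, so not lower under the hairpin label. In 4T1 in vivo libraries it was at 97.87 to 149.6 TPM, and both niche groups held transcripts of a 4T1 panel (below). The part of 4T1 RNA in the niche Sox9 levels was not tested. These levels therefore do not show whether Sox9 fell in the epithelial cells. Marker genes of other cells were present in the niche libraries. A panel of 14 genes that every 4T1 library had at 20 CPM (counts scaled to library size) or more and every distal library at 1 CPM or less stood, as a median ratio to 4T1 in vivo, at 20.3, 22.0 and 13.7% in the niche libraries, at 21.4, 18.2 and 11.6% in those labelled shSox9, and at 1.01 to 1.46% in distal. The 12 fibroblast and mural markers summed to 3042 to 3799 CPM in distal, 13041 to 14620 CPM in niche and 11133 to 17120 CPM in shSox9 libraries, and all 12 were at a mean of at least 1 CPM in each. The 11 macrophage markers summed to 211 to 305, 2780 to 3845 and 144 to 873 CPM in the same order, with Marco at 0 in distal. The 11 alveolar type 2 markers summed to 210176 to 258029 CPM in distal, 11739 to 15861 CPM in niche and 37532 to 62042 CPM in shSox9 libraries. The epithelial identity genes, Epcam and Cdh1 among them, were detected in every group, and from distal to niche 1 of the 6 rose and 4 fell. In such bulk samples fewer cells of a type and less RNA per cell cannot be told apart. The part of these other cells in the integrin results was not tested, except that the estimated 4T1 counts were subtracted as described with the niche results.

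**Figure D1:**
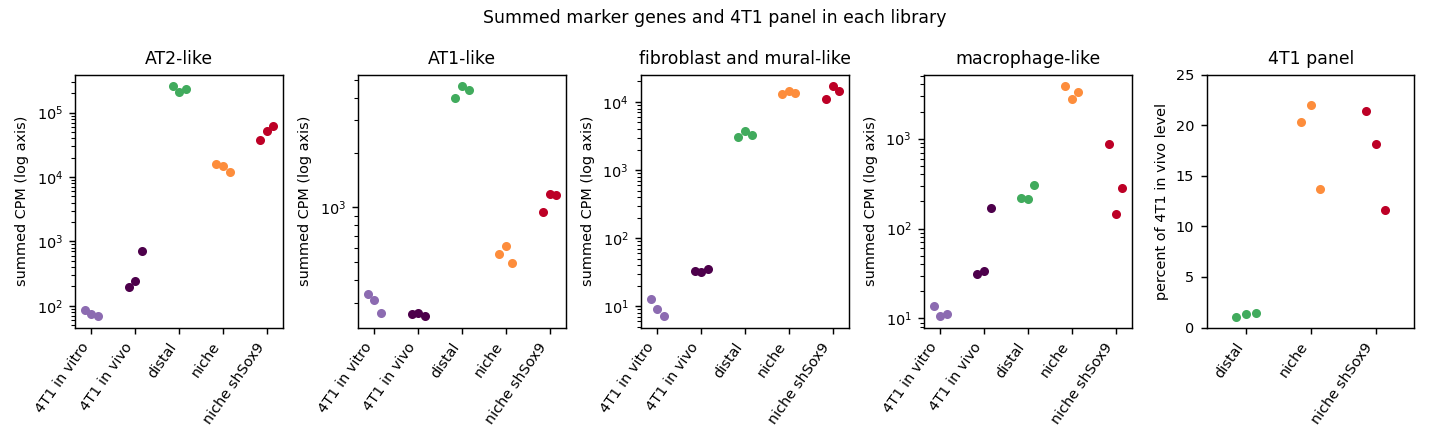
Summed level of the AT2-like, AT1-like, fibroblast and mural-like and macrophage-like marker lists in each library (CPM, log axis), and the 4T1 panel in the epithelial libraries as a percentage of its 4T1 in vivo level; each point is 1 library. Fibroblast markers were higher in all 6 niche libraries than in the 3 distal ones, and macrophage markers were higher in the niche libraries than in every library labelled shSox9.

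Summed over the 10 genes, the integrin transcript level was 159.6 ± 12.7 TPM (SD, n = 3) in distal epithelium, 401.6 ± 33.2 TPM in niche, 420.0 ± 76.5 TPM in niche labelled shSox9, 574.6 ± 30.6 TPM in 4T1 in vivo and 613.6 ± 65.9 TPM in 4T1 in vitro. Every niche library lay above every distal one. TPM ratios between niche and distal were larger than the count-based fold changes given below: the median log2 change over all genes was 0.02 on counts scaled by TMM (trimmed mean of M-values) and 0.53 on log2(TPM + 1). Levels below are TPM, and fold changes and tests come from edgeR (quasi-likelihood F-test) on scaled counts, with the Benjamini-Hochberg adjustment made over every gene tested and a call at an adjusted p below 0.05. Intervals are 95% normal intervals of the log2 fold change.

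**Figure D2:**
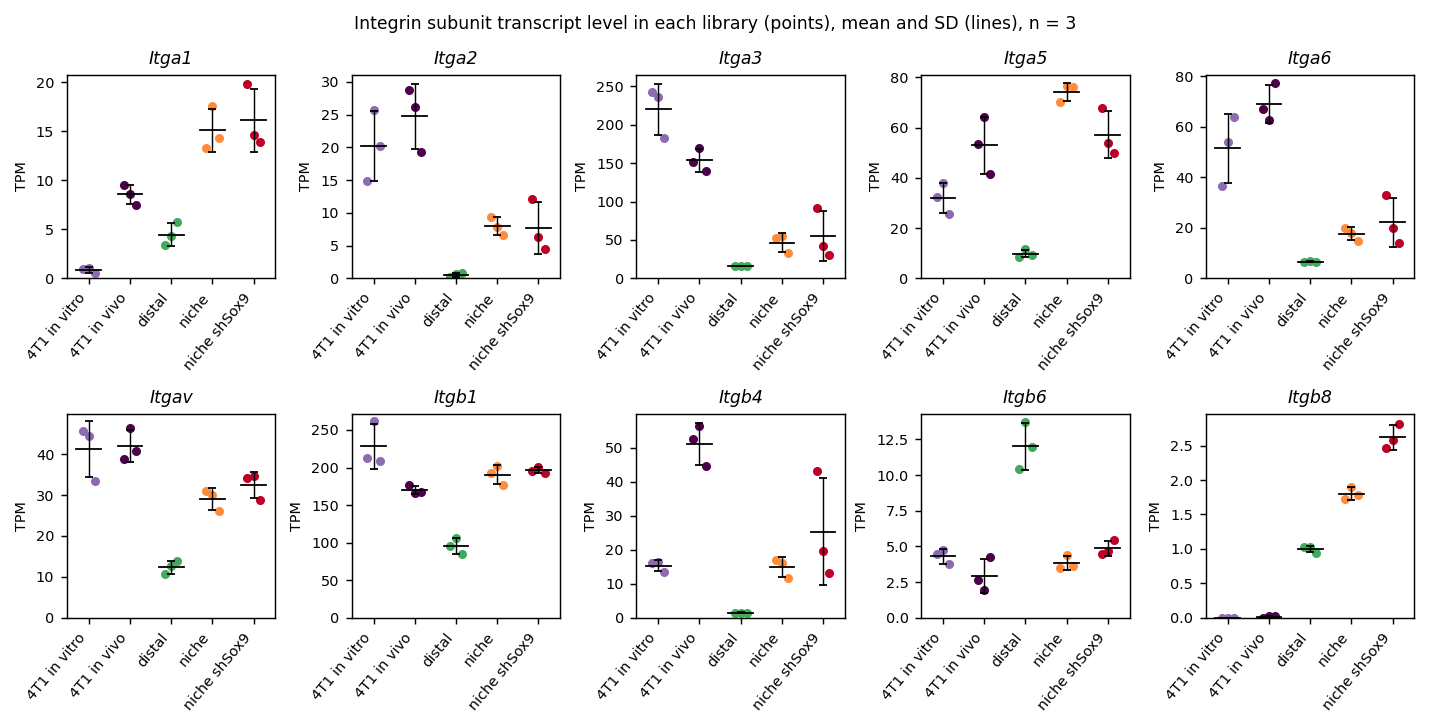
TPM of each of the 10 integrin genes in each library (points), with the group mean and SD (lines, n = 3), on an axis starting at 0 that differs between genes. Itgb6 is the gene with its highest mean in distal epithelium, Itga5 has its highest mean in niche, and Itgb8 is at or near 0 in both 4T1 groups.

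In 4T1 cells taken from the lung, the collagen receptor chain Itga1, the hemidesmosome chain Itgb4 and the fibronectin receptor chain Itga5 were higher than in culture, while Itga3, Itgb1 and Itgb6 were lower. Of 9 genes tested, 3 rose and 3 fell, where 51% of all 14022 genes tested were called, 27% higher and 24% lower. On scaled counts the libraries of the 2 groups did not overlap for 6 of the 9, against 60.7% of all genes. The median log2 change was 0.30 over the 9 genes and 0.01 over all genes. Itgb8 was too low to be tested. Markers of host cells rose in the same comparison: 5 of 5 fibroblast and mural markers tested, 7 of 8 endothelial (1 fell), 7 of 9 alveolar type 2, 6 of 9 macrophage and 7 of 8 leukocyte markers. Their summed levels were 7.22 to 12.6 CPM in vitro and 32.4 to 35.0 CPM in vivo for fibroblast and mural markers, 71.7 to 85.5 and 119 to 133 CPM for endothelial, 69.5 to 87.1 and 194 to 701 CPM for alveolar type 2, 10.7 to 13.7 and 31.6 to 168 CPM for macrophage, and 66.0 to 76.3 and 63.3 to 178 CPM for leukocyte markers. In vitro a few genes made up most of each sum. By mean CPM these were Pdgfra (8.65), Eng (54.6), Egfl7 (23.4), Abca3 (29.8), Etv5 (45.3), Cd68 (8.99) and Lcp1 (71.3). In vivo Lyz2, on the alveolar type 2 list, was at 50.4, 102 and 514 CPM, and Sftpc at 48.7, 53.7 and 88.9 CPM. The part of host cells in the integrin changes was not tested.

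Itga1, a collagen-binding chain, stood at 0.94, 1.05 and 0.54 TPM in vitro and at 9.53, 8.62 and 7.52 TPM in vivo. The groups were far apart, and the count-based log2 fold change was 2.68 ± 0.14 (SE), a 6.40-fold rise (adjusted p = 1.0e-06). The TPM ratio is larger, and the effective transcript length of Itga1 that the authors divided by also differed, at 6677 to 10102 bases in vitro and 4820 to 5389 bases in vivo. Itga2, the other collagen-binding chain, was at 14.9, 25.64 and 20.19 TPM in vitro and 28.74, 26.17 and 19.24 TPM in vivo, with overlapping groups and a log2 fold change of counts of 0.35 ± 0.18 that did not pass (adjusted p = 0.129).

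Among the laminin receptor chains, Itgb4 was at 16.1, 16.47 and 13.35 TPM in vitro and at 52.38, 56.32 and 44.42 TPM in vivo. Every in vivo library was above every in vitro one, and the rise on counts was 3.33-fold (log2 1.74 ± 0.11, adjusted p = 3.3e-06). Its partner Itga6 was at 36.49, 54.05 and 63.8 TPM in vitro and 67.14, 62.61 and 77.17 TPM in vivo. Those groups overlapped, since the third in vitro library exceeded the second in vivo one, and the log2 fold change of counts was 0.30 ± 0.21 (adjusted p = 0.266). The difference passed without in vitro replicate 3 (log2 0.52, adjusted p = 0.0475). The ratio of Itga6 to Itgb4 in TPM was 3.44 ± 1.26 in vitro and 1.38 ± 0.324 in vivo (SD, n = 3). Itga3, the more abundant laminin-binding chain, was at 242.16, 236.22 and 182.01 TPM in vitro and 151.32, 169.36 and 139.4 TPM in vivo. Its groups did not overlap and it fell by 0.58 ± 0.10 on the log2 scale of counts (adjusted p = 0.00134), a call that was lost when all 15 libraries shared 1 fit (adjusted p = 0.101).

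Itga5, which forms the main fibronectin receptor with Itgb1, was at 32.43, 37.83 and 25.65 TPM in vitro and at 53.27, 64.06 and 41.54 TPM in vivo, without overlap. It rose 1.51-fold on counts (log2 0.60 ± 0.15, adjusted p = 0.00735). Itgb1 was at 212.65, 262.62 and 209.32 TPM in vitro and 176.94, 166.15 and 167.13 TPM in vivo, and fell by 0.48 ± 0.10 on the log2 scale of counts (adjusted p = 0.00347). Itgav was at 45.71, 44.48 and 33.32 TPM in vitro and 38.78, 46.37 and 40.73 TPM in vivo, overlapping, with a log2 fold change of counts of -0.07 ± 0.11 (adjusted p = 0.643; interval -0.29 to 0.15).

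Itgb6, a low gene in 4T1 cells, had 162, 279 and 207 counts in vitro and 85, 94 and 94 counts in vivo. It fell by 0.94 ± 0.16 on the log2 scale of counts (adjusted p = 0.00122). In TPM the groups overlapped, at 4.45, 4.73 and 3.73 in vitro and 2.64, 1.93 and 4.25 in vivo, and the test on log2(TPM + 1) with limma did not call it (adjusted p = 0.149). Itgb8 had 0 counts in all 3 in vitro libraries and 0, 3 and 2 counts in vivo, so at this depth it was not detectable in culture and was near the limit in lung.

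**Figure D3:**
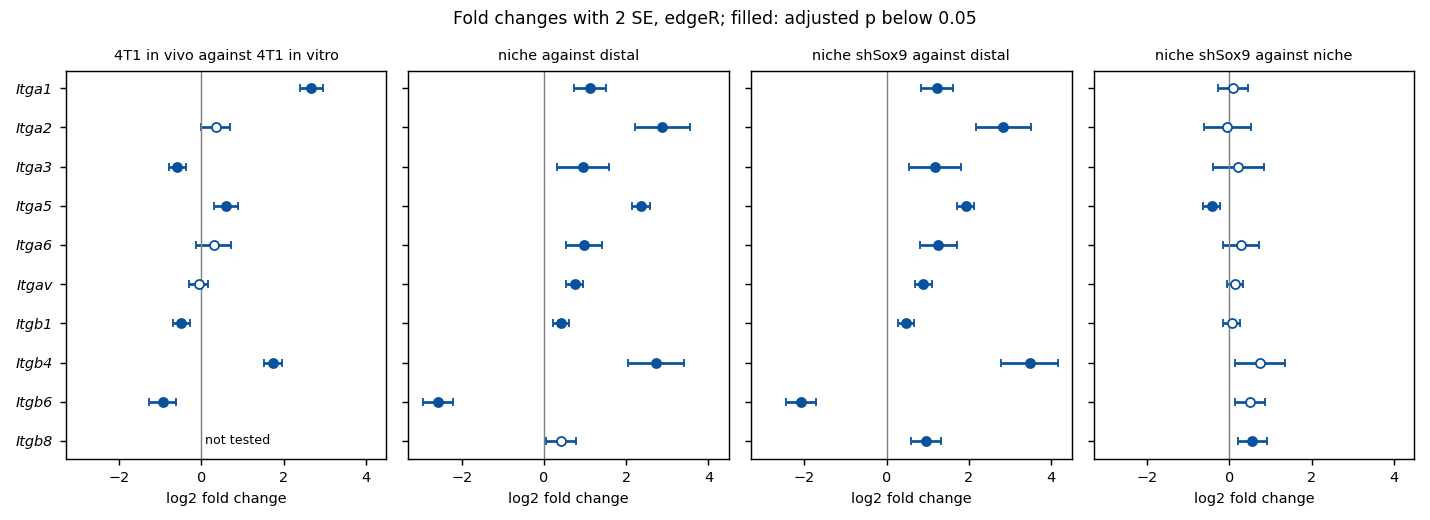
log2 fold change of TMM-scaled counts for each integrin gene in 4 comparisons, with bars of 2 standard errors; filled points have an adjusted p below 0.05 (edgeR), and Itgb8 could not be tested in 4T1 cells. Itgb6 lies far to the left in both comparisons with distal epithelium, where the other 9 genes lie to the right of 0.

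Niche epithelium was compared with distal epithelium to ask what differs in epithelial cells of the metastatic niche. There 8 of the 10 integrin genes were higher, 1, Itgb6, was lower, and Itgb8 did not pass, against 54.3% of all 17640 genes called, 28.5% higher and 25.8% lower. On scaled counts none of the 10 had overlapping groups, against 64.3% of all genes without overlap. The median log2 change was 0.96 over the 10 genes and 0.02 over all genes. The largest increases were those of Itga2, Itgb4 and Itga5.

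Of the collagen-binding chains, Itga2 was at 0.17, 0.62 and 0.79 TPM in distal and at 9.44, 7.9 and 6.69 TPM in niche libraries. It had the lowest mean of the 10 genes in distal and rose 7.37-fold on counts (log2 2.88 ± 0.33, adjusted p = 3.1e-05). Its distal libraries held only 19, 18 and 29 counts, and its effective transcript length there was 7018, 2261 and 2744 bases. Itga1 was at 3.42, 4.28 and 5.71 TPM in distal and 13.32, 17.56 and 14.32 TPM in niche. It rose 2.18-fold on counts (log2 1.13 ± 0.19, adjusted p = 4.8e-04), and its niche libraries were also above every 4T1 library.

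Of the laminin-binding chains, Itgb4 was at 1.49, 1.32 and 1.52 TPM in distal and 17.0, 16.16 and 11.62 TPM in niche, a 6.59-fold rise on counts (log2 2.72 ± 0.34, adjusted p = 5.5e-05). Itga6 was at 6.33, 7.02 and 6.6 TPM in distal and 19.96, 18.14 and 14.83 TPM in niche (log2 fold change of counts 0.97 ± 0.22, adjusted p = 0.00337). Itga3 was at 15.72, 16.27 and 16.53 TPM in distal and 52.61, 54.54 and 32.84 TPM in niche (log2 fold change of counts 0.95 ± 0.32, adjusted p = 0.0246). None of these 3 genes had overlapping groups. In each, the third niche library, which also had the lowest 4T1 panel, was the lowest of the niche libraries in TPM. That library was also the lowest in TPM for Itga2, Itgav and Itgb1, but not for Itga1, Itga5, Itgb6 or Itgb8. The Itga3 call was lost with DESeq2 (adjusted p = 0.055) and without niche replicate 1 (0.0691), niche replicate 2 (0.0789), or distal replicate 1 (0.0644), 2 (0.0739) or 3 (0.0553).

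Itga5 was at 8.71, 11.51 and 9.28 TPM in distal and at 70.18, 76.37 and 75.93 TPM in niche. The niche level was above that of every other library of the series, and the rise on counts was 5.10-fold (log2 2.35 ± 0.11, adjusted p = 7.4e-08). Itgav was at 10.57, 12.62 and 13.76 TPM in distal and 31.11, 29.96 and 25.98 TPM in niche (log2 fold change of counts 0.75 ± 0.10, adjusted p = 9.8e-05). Itgb1, which had the highest mean of the 10 genes in every group, was at 94.94, 105.89 and 84.67 TPM in distal and 192.14, 202.23 and 177.04 TPM in niche. It rose 1.33-fold on counts (log2 0.41 ± 0.10, adjusted p = 0.00439). Fibroblasts also express Itga1, Itga5 and Itgb1, and 7 of 12 fibroblast and mural markers rose and 2 fell in the same comparison, while 11 of 11 macrophage markers rose.

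Itgb6 went the other way. It was at 10.4, 13.69 and 11.94 TPM in distal and at 3.5, 4.4 and 3.65 TPM in niche, without overlap, and fell by 2.57 ± 0.19 on the log2 scale of counts (adjusted p = 9.8e-07). In the same comparison 11 of 11 alveolar type 2 markers and 11 of 12 alveolar type 1 markers fell. The ratio of Itgb6 to its partner Itgav in TPM was 0.979 ± 0.109 in distal and 0.133 ± 0.0183 in niche (SD, n = 3). Itgb8, the other TGF-beta-activating beta chain, was at 1.02, 1.03 and 0.94 TPM in distal and 1.72, 1.9 and 1.78 TPM in niche, with 62 to 88 and 102 to 163 counts per library. Its groups did not overlap, but the log2 fold change of counts of 0.41 ± 0.18 did not pass (adjusted p = 0.0802). It did with limma on log2(TPM + 1) (0.0210).

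RefSeq promoter windows of mouse build GRCm38.p6, the 250 bases before a transcript start, were available for 8 of the 10 genes. The windows of Itga5, which had the smallest p among the integrin genes that rose in niche, Itgb6, the gene that fell, and Itga3, one of the genes that did not pass once 4T1 counts were subtracted (below), are shown 5′ to 3′ on the gene's strand, with the motif GGGCGG (bound by Sp1 and Kruppel-like factors) on either strand in capitals. Bases inside the annotated gene are left out, which shortens Itga3 and Itgb6 to 163 and 210 bases. They lie at chr15:103366792-103367041, chr2:60722644-60722853 and chr11:95076802-95076964, upstream of the protein-coding genes Itga5 (chr15:103344286-103366763), Itgb6 (chr2:60598292-60722643) and Itga3 (chr11:95044474-95076801), all on the minus strand.
Itga5: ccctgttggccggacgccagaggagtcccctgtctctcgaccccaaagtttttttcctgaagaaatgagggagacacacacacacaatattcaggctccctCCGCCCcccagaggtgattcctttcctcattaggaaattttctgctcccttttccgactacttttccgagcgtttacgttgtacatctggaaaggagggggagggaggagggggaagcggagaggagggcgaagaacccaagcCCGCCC
Itgb6: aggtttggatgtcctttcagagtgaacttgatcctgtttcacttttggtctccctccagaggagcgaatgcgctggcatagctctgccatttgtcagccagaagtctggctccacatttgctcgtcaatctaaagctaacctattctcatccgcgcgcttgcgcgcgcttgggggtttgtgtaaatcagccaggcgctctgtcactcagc
Itga3: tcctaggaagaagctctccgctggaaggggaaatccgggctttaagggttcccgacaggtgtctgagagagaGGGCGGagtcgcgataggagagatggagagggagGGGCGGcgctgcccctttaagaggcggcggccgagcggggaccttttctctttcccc
GGGCGG was found in 4 of 10 integrin windows (2 genes have a second start) against 32.74% of 32851 windows of the same length. The Itga5 window held it 149 and 6 bases before the start, the Itga3 window 178, 144 and 35 bases before it (the last lies in the stretch left out), and the Itgb6 windows held none. TGANTCA, the AP-1 motif, was in 0 of 10 against 6.75% of all windows, and GGAATG, the TEAD motif, was in 1 of 10, that of Itgb1, against 12.64%. The motifs do not overlap one another in the windows shown. A match or its absence describes these letters in this window and nothing of the factor.

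The estimated 4T1 counts of each niche library, its panel percentage applied to the mean 4T1 in vivo CPM of each gene, were then subtracted. Against distal, 6 integrin genes in niche remained higher at an adjusted p below 0.05 and also passed before: Itga1 (log2 fold change of counts 1.39), Itga2 (2.02), Itga5 (2.56), Itgav (0.62), Itgb1 (0.57) and Itgb4 (1.51). Itgb6 remained lower, at -2.31, and Itgb8 passed, at 0.84 (adjusted p = 0.00474). The laminin-binding chains Itga3 and Itga6 turned to -0.12 (adjusted p = 0.876) and -0.78 (0.182). Both had their highest group mean in TPM in 4T1 cells, but so had Itga2, Itgav, Itgb1 and Itgb4, which still passed. In the shSox9 libraries the same step left Itga3 at 0.57 (0.459) and Itga6 at 0.41 (0.511), and the other 8 genes passed. Single panel genes gave shares from 3.47 to 29.5% in niche, so the subtraction is an estimate.

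**Figure D4:**
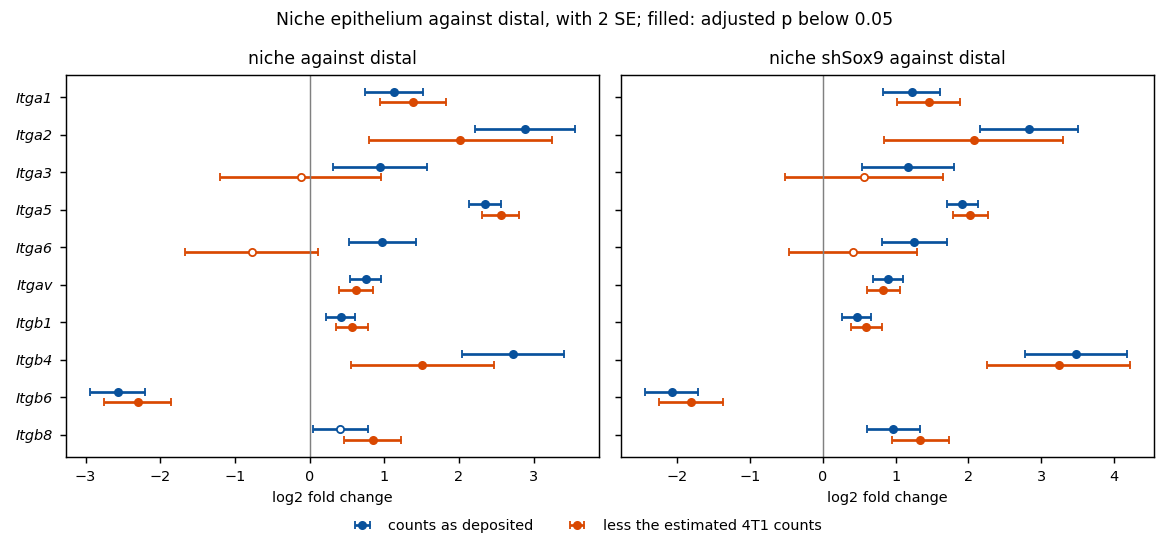
log2 fold change of counts against distal epithelium for niche (left) and niche labelled shSox9 (right), with bars of 2 standard errors, from the counts as deposited (blue) and less the estimated 4T1 counts (orange); filled points have an adjusted p below 0.05. Itga3 and Itga6 are the genes whose orange points are open in both panels.

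Niche epithelium labelled shSox9 differed from niche epithelium in 2 of the 10 integrin genes, where 20.5% of all genes tested were called, 9.68% higher and 10.8% lower. On scaled counts 4 of the 10 had groups without overlap (Itga5, Itgav, Itgb6 and Itgb8), against 37.9% of all genes. Itga5 was at 67.6, 53.9 and 49.9 TPM in shSox9 and 70.18, 76.37 and 75.93 TPM in niche libraries. It was lower in all 3, and fell by 0.43 ± 0.10 on the log2 scale of counts (adjusted p = 0.0118), but not past the threshold without shSox9 replicate 2 (0.0542) or with limma on log2(TPM + 1) (0.0927). Itgb8 was at 2.46, 2.58 and 2.82 TPM in shSox9 libraries, all above the niche libraries, with a log2 fold change of counts of 0.56 ± 0.18 (adjusted p = 0.0457). The labels state no pairing of these 2 groups, but libraries of the same letter were also treated as pairs. With that block the Itgb8 change was 0.56 ± 0.19 and no longer passed (adjusted p = 0.0648), leaving 1 gene. Itgb8 also missed the threshold without shSox9 replicate 2 (0.143) or 3 (0.114) or niche replicate 1 (0.0926), 2 (0.132) or 3 (0.114), with no filter on low counts (0.138), with limma (0.149) and less the 4T1 counts (0.0791).

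The other 8 genes did not pass. Itgb4 was at 43.06, 19.66 and 13.09 TPM in shSox9 libraries, with a log2 fold change of counts of 0.76 ± 0.30 (adjusted p = 0.104; interval 0.16 to 1.35). Its first library was far above the others, and Itga3 (92.12, 42.67 and 30.02 TPM) and Itga6 (32.93, 19.77 and 14.01 TPM) were likewise highest there. The 4T1 panel was at 21.4% in this library, and at 18.2 and 11.6% in the other shSox9 libraries. Niche replicate 2 had the panel at 22.0% and Itgb4 at 16.16 TPM. The source of the high values was not tested. Without shSox9 replicate 1 the Itga3, Itga6 and Itga1 changes turned to -0.33, -0.05 and -0.09, none past the threshold. Itgb4 passed without shSox9 replicate 3 (log2 1.03, adjusted p = 0.0264), with no filter on low counts (0.74, 0.00255) and less the 4T1 counts (1.73, 0.0191). Itgb6 was at 4.46, 4.65 and 5.48 TPM, above every niche library in TPM and at a log2 fold change of counts of 0.49 ± 0.18 (adjusted p = 0.0798), and it passed with upper quartile scaling (0.0463) and without niche replicate 2 (0.0356). The intervals of Itgb1 (-0.14 to 0.25) and Itgav (-0.06 to 0.34) were narrow, and those of Itga2 (-0.61 to 0.51) and Itga3 (-0.39 to 0.83) were wide. In this comparison 10 of 11 alveolar type 2 markers rose, and 9 of 11 macrophage and 8 of 8 leukocyte markers fell.

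Against distal epithelium, niche epithelium labelled shSox9 had 9 integrin genes higher and Itgb6 lower, where 43.8% of all genes tested were called, 21.7% higher and 22% lower. All 10 had groups without overlap on scaled counts, against 52.8% of all genes. This comparison shares its distal libraries with that of unlabelled niche cells. The log2 fold changes of counts were 3.48 ± 0.35 for Itgb4, 2.83 ± 0.33 for Itga2 and 1.92 ± 0.11 for Itga5, beside 2.72, 2.88 and 2.35 in niche. Itga6, Itga1 and Itga3 stood at 1.26, 1.22 and 1.16, and Itgav and Itgb1 at 0.89 and 0.47. Itgb8, at 62 to 88 counts in distal and 181 to 219 in shSox9 libraries, passed here with a log2 fold change of 0.97 ± 0.18 (adjusted p = 0.00129). Itgb6 fell by 2.08 ± 0.18 on the log2 scale (adjusted p = 6.8e-06).

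Tumour cells from the lung were also set against niche epithelium. Between 4T1 in vivo and niche, 5 genes were higher in the tumour cells and 4 in the niche libraries. Of all 18242 genes tested, 64.8% were called, 28.9% higher and 36% lower. The groups did not overlap on scaled counts for all 10, against 71.8% of all genes. Higher in 4T1 cells were Itga6 (log2 fold change of counts 1.94 ± 0.25), Itgb4 (1.74 ± 0.27), Itga3 (1.68 ± 0.28), Itga2 (1.53 ± 0.26) and Itgav (0.66 ± 0.11). Higher in niche were Itga1 (-0.84 ± 0.18), Itgb6 (-0.81 ± 0.18), Itga5 (-0.54 ± 0.13) and Itgb8. Itgb1 did not pass, at -0.20 ± 0.10 (adjusted p = 0.101), but did with DESeq2 (-0.32, adjusted p = 0.00418). Itgb6 did not pass there with limma on log2(TPM + 1) (adjusted p = 0.141). The niche libraries held the 4T1 panel at 13.7 to 22.0% and also fibroblast and macrophage markers. Their integrin levels therefore cannot be taken as those of epithelium alone. Of 130 values recomputed for this comparison, the subtraction of 4T1 counts among them, 128 kept their direction and side of the threshold. The part of fibroblasts and macrophages was not tested. A set of 363 genes at 20 CPM or more in every distal and niche library and at 1 CPM or less in every cultured 4T1 library stood in 4T1 in vivo at a median of 0.599, 0.756 and 1.19% of their niche level.

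Between cultured 4T1 cells and distal epithelium all 10 genes were called, 7 higher and 3 lower in 4T1 cells, where 81.5% of all genes tested were called, 30.5% higher and 51% lower. None of the 10 had overlapping groups on scaled counts, against 82.4% of all genes without overlap. The log2 fold change of counts was largest for Itga2 (4.01 ± 0.32), Itga3 (3.15 ± 0.30) and Itgb4 (2.67 ± 0.31). Itgb6 and Itga1 were lower in 4T1 cells, at -2.51 ± 0.18 and -2.45 ± 0.20. Itgb8, with 220 counts over the distal libraries, 410 over niche and 586 over shSox9, was at least 107-fold, 172-fold and 253-fold higher on the CPM scale than in cultured 4T1 cells, taking 3 counts over the 3 libraries as the limit that a count of 0 allows. The median change of all genes in this comparison was -0.56 on counts and 0.08 on log2(TPM + 1), and none of the 10 genes changed direction between the scales.

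The make-up of the integrin pool, the share of each gene in the summed TPM of the 10, differed between cell types. Itgb1 made up 59.6% of the pool in distal, 47.5% in niche, 47.8% in shSox9, 29.7% in 4T1 in vivo and 37.2% in 4T1 in vitro libraries. Itga3 made up 10.2, 11.5, 12.5, 26.7 and 35.8% in the same order, and was the second most abundant gene in distal and both 4T1 groups, while Itga5 was second in both niche groups. Itga5 made up 6.14% in distal, 18.6% in niche and 13.6% in shSox9 libraries. Itgb6 made up 7.51% in distal and 0.520 to 1.20% in the other groups. Itgb4 made up 0.912% in distal, 3.70% in niche, 5.71% in shSox9, 2.50% in 4T1 in vitro and 8.86% in 4T1 in vivo. These shares are group means, and the shSox9 libraries differed. In their order, Itgb4 was at 8.53, 4.92 and 3.68%, Itga3 at 18.3, 10.7 and 8.44%, and Itgb1 at 38.8, 50.3 and 54.2%. The mean share of Itgav kept to 6.70 to 7.84% in all 5 groups, while single libraries ran from 6.04 to 9.07%.

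**Figure D5:**
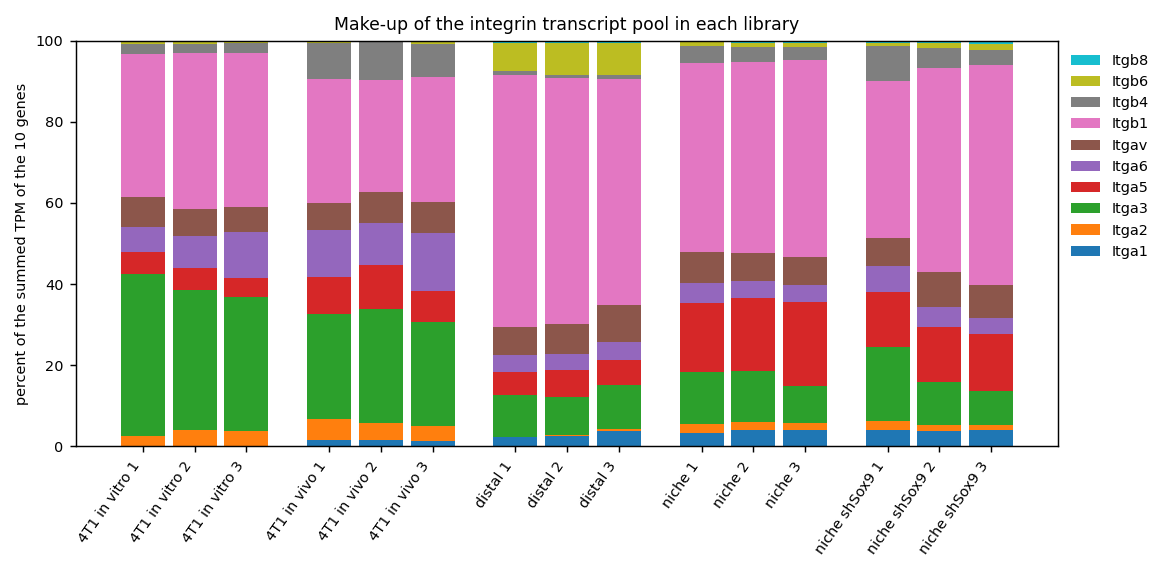
Share of each of the 10 integrin genes in their summed TPM, 1 bar per library, each bar reaching 100%. Itgb1 (pink) is the largest segment in every distal and niche library, Itga3 (green) is largest or second in the 4T1 libraries, and Itgb6 (olive) is widest in distal epithelium, at a mean of 7.51%.

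Other genes of the adhesion system were counted from lists. Each count is to be read against the share of all genes called in the same comparison, here 27% higher and 24% lower. In 4T1 cells in vivo against in vitro, 8 of 9 hemidesmosome and tetraspanin partners rose and none fell (median log2 change 0.63), among them Cd82, a tetraspanin, at 2.33 ± 0.13, Krt14, a basal keratin, at 1.39 ± 0.25, and Cd151, the tetraspanin bound to laminin receptors, at 0.66 ± 0.12. Of 23 genes of the talin-kindlin adhesion complex and focal adhesion kinases, 4 rose and 11 fell (median -0.25), with the scaffold Bcar1 at -1.16 ± 0.10 and the tensin Tns3 at -1.14 ± 0.11. The laminin chain Lama5 rose by 0.49 ± 0.14 on the log2 scale of counts. Of 20 other ligands 8 rose and 5 fell: nephronectin Npnt was at 2.59 ± 0.10, osteopontin Spp1 at 1.26 ± 0.25, thrombospondin Thbs1 at -3.11 ± 0.17 and Ccn2 at -3.82 ± 0.12. Of 11 other integrin subunits 6 rose and 2 fell (median 0.82). Among those called without overlap and at 5 CPM or more in the higher group, Itga10, a collagen-binding chain, had the largest rise. It was at 3.69 ± 0.34, from a mean of 0.533 to 6.92 CPM, and Itgb2, a chain known from leukocytes, was at 0.82 ± 0.20. Itgb2 was already at a mean of 63.7 CPM in cultured 4T1 cells. Of the 8 leukocyte markers there, 3 (Laptm5, Tyrobp and Cd53) were at 0 in every library. Only 1, Lcp1, reached a mean of 1 CPM in culture, at 71.3 CPM, while all 8 did in vivo. Which cells the Itgb2 RNA came from was not tested. Itga7 and Itgb3, a partner of Itgav, fell, at -1.29 ± 0.16 and -1.02 ± 0.29.

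In niche against distal epithelium, where 28.5% of all genes were called higher and 25.8% lower, 14 of 22 other ligands rose and 4 fell (median 0.79). Spp1, which Itgav dimers bind, rose by 4.58 ± 0.30 on the log2 scale of counts, tenascin C (Tnc) by 3.89 ± 0.12 and Col1a1 by 2.35 ± 0.20, while the alveolar basement membrane chains Col4a3 and Col4a4 fell, at -4.58 ± 0.35 and -4.32 ± 0.26. Of 16 other integrin subunits 5 rose and 7 fell (median -0.31), with Itgb5, another partner of Itgav, at 1.48 ± 0.13 and the leukocyte chains Itgax and Itgb2 at 2.81 ± 0.39 and 2.51 ± 0.35. The laminin-binding chain Itga7 and the nephronectin receptor chain Itga8 fell, at -2.41 ± 0.18 and -1.31 ± 0.21. Of 11 laminin chains 4 rose and 2 fell, of 23 adhesion complex genes 9 rose and 2 fell, of 4 inhibitors of integrin activation 3 rose, and of 10 hemidesmosome and tetraspanin genes 3 rose and 4 fell. The kindlin Fermt3, known from blood cells, was at 2.21 ± 0.45 and the epithelial kindlin Fermt1 at 1.64 ± 0.36.

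In shSox9 against niche libraries, where 9.68% of all genes were called higher and 10.8% lower, among the other integrin subunits the leukocyte chains Itgax, Itgb2 and Itgal fell, at log2 fold changes of counts of -3.07 ± 0.39, -2.60 ± 0.35 and -2.36 ± 0.23, and Itga7 and Itga8 rose by 1.11 ± 0.17 and 1.07 ± 0.21, for 3 higher and 6 lower of 16. All 8 leukocyte markers fell in the same comparison. Of 11 laminin chains 5 rose and none fell (median 0.37), among them Lamc3 at 1.51 ± 0.22, Lama2 at 0.86 ± 0.17 and Lamb1 at 0.50 ± 0.12. Of 22 other ligands 6 rose and 2 fell, the latter being Tnc at -0.46 ± 0.11 and the latent TGF-beta gene Tgfb1 at -0.62 ± 0.15, and Npnt was among those that rose, at 0.79 ± 0.16. Of 23 adhesion complex genes 3 rose and 3 fell, and of 10 hemidesmosome and tetraspanin genes 2 rose, Col17a1 among them at 1.21 ± 0.25, and 1, Krt14, fell by 1.44 ± 0.44.

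The genes whose pattern over the 15 libraries was most like that of each integrin gene were found by the root mean square difference of centred log2(CPM + 1) among 12409 genes. The closest were Ptges for Itga1 (0.266), Kcnn4 for Itga2 (0.257), Enc1 for Itga5 (0.225), Htra1 for Itga6 (0.224), Stc1 for Itgb4 (0.364), Thsd4 for Itgb6 (0.241), Fetub for Itgb8 (0.138), Tcf3 for Itgav (0.101) and Arcn1 for Itgb1 (0.106), in log2 units. For Itga3 it was Olfr1388 (0.181), followed by Nup155 (0.229). Cav1, a caveolin abundant in alveolar type 1 cells, was the second closest to Itgb6 (0.251), and the urokinase receptor Plaur the second closest to Itga2 (0.279). These are descriptions over libraries of 5 groups.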

How the data were processed

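RNA was sequenced from 15 libraries (RNeasy Micro extraction, KAPA Hyper Prep, Illumina HiSeq, per the labels' protocols). The authors deposited expected counts and TPM per Ensembl gene for each library, and RSEM, DESeq2 and GRCm38 are named in the submitters' processing notes; no source used here gives the aligner, annotation, strandedness or versions. Genes were named through GENCODE M21, which matched 54809 of 54838 identifiers. Expected counts were rounded and fitted with edgeR 4.0.16 (TMM, filterByExpr, quasi-likelihood F-test, R 4.3.3), with 6 libraries for the 4T1 comparison, 9 for the epithelial comparisons and 15 across cell types, p-values adjusted over all genes and called below 0.05; the SE is the log2 fold change divided by the root of F. The fit was tested on simulated data. TPM gives the levels.

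The integrin genes, gene lists, markers and tests were chosen with earlier results of these data known. Other adhesion genes were named by size of change within their list, at 5 CPM or more in the higher group; 1 result of that rule is not reported here; the genes most like each integrin gene are the closest by the stated measure. Alternatives were upper quartile scaling, DESeq2 1.42.0, no filter, a replicate block, other sets of libraries in the fit, limma 3.58.1 on log2(TPM + 1) with a mean TPM of at least 1, subtraction of the 4T1 share, and leaving out each library. The labels do not state that library letters pair niche with shSox9 libraries. Deviations from the group means correlated at 0.142 to 0.198 in all 3 same-letter pairs of these groups, while for the other pairs of groups this did not hold. Distal replicate 3 and shSox9 replicate 1, which are not matched, correlated at 0.207. No libraries were duplicates (chi-square per degree of freedom between replicates 7.66 to 39.4). Reads of overlapping or antisense genes cannot be told apart without strand.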

Additional observations from a re-analysis of the deposited data

How the results depend on the processing

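Over all 6 comparisons and the alternatives tried, 758 values of single integrin genes were recomputed. Of these, 714 kept their direction and their side of the threshold, 23 fell short of it, 9 passed it anew and 12 changed sign. Those that changed sign were, in 4T1 cells, Itgav with limma on log2(TPM + 1) (0.036) and without in vitro replicate 2 (0.0026; -0.19 to 0.0026 without each library); in niche against distal, Itga3 (-0.12) and Itga6 (-0.78) less the 4T1 counts; and in shSox9 against niche, Itga2 with upper quartile scaling (0.02), less the 4T1 counts (0.054) and without shSox9 replicate 2 (0.08), shSox9 replicate 3 (0.10) or niche replicate 1 (0.18; -0.38 to 0.18 without each library), and Itga1, Itga3 and Itga6 without shSox9 replicate 1 (-0.085 to 0.24, -0.33 to 0.49 and -0.054 to 0.47 without each library, the lowest in each case without that one). None of the 12 was past the threshold, and except for the subtraction the cause was not tested.

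The number of integrin genes called in shSox9 against niche, 2 as reported, was 1 with the replicate block, 1 with the block on only the 6 libraries compared (an alternative chosen after seeing the data), 0 with limma on log2(TPM + 1), and 0 to 2 without each library in turn (0 without shSox9 replicate 2, 1 without niche replicate 1 or niche replicate 3). All genes called there were 3616, and 2238 to 4224 without each library, the lowest without niche replicate 1. In the other comparisons the counts of integrin genes stayed within 1.5 times, and the replicate block changed no other call; it moved all genes called in 4T1 cells from 7151 to 7487.

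On log2(TPM + 1), 80.3% of the genes called in niche against distal were higher, against 52.46% on scaled counts, and 82.5% against 49.66% for shSox9 against distal; for cultured 4T1 cells against distal it was 54.36% against 37.43%. Upper quartile scaling moved that share from 47.21 to 58.23% in shSox9 against niche. With 3 libraries a group, and few counts per library of Itgb8, of Itga2 in distal epithelium, and of Itgb6 in 4T1 cells, the precision for these genes is limited.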
